A study of Homo sapiens with 4 samples.

Results

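The genes described here are those for cytokines, chemokines, their receptors and tumour necrosis factor (TNF) family proteins in LS411N-5FU-R cells, a human colon carcinoma line selected for resistance to 5-fluorouracil (5-FU). The rule uses gene symbols and no expression values, although the gene group was picked with earlier results of these data known. It takes protein-coding genes whose symbol begins with TNFSF, TNFRSF, CXCL, CXCR, CCL or CCR and a digit, or IL and a digit, together with LIF, LIFR, OSMR, TNF, CSF1, CSF2 and CD274. Of 183 RefSeq symbols that meet this rule, 107 were measured, out of 14884 named genes on the arrays, and the other 76 were not analysed here. Among those 76 were all 33 symbols beginning with TNFSF or TNFRSF, so TNF was the sole TNF superfamily gene among the 107, and CSF2, IL6, IL1B and CXCL1 were not analysed here either. The study compared cells grown for 3 days with 50 nM verticillin A (2 arrays), a fungal metabolite of the epipolythiodioxopiperazine class that inhibits histone H3 lysine 9 methyltransferases, with cells grown for the same time at 0 nM (2 arrays, called control). Both groups were the 5-FU-resistant line in RPMI medium with 10% serum, no 5-FU is recorded for either, and the parental line LS411N was not among the samples. Whether the arrays of a group stem from independent cultures is not recorded, so the spread behind each p-value is that between these samples and could be technical. The line is 1 selected line, which limits it as a model of 5-FU resistance.

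Cytokines signal through paired receptor chains on the cell surface. Class I and class II receptors, such as those for interleukin 4 (IL-4), IL-20 and leukaemia inhibitory factor (LIF), activate Janus kinases (JAK) and STAT transcription factors, whereas IL-1, IL-17 and TNF receptors lead to NF-kB and AP-1. Chemokines are small secreted proteins that attract leukocytes through receptors coupled to G proteins. In the colon, epithelial cells are both a source of such signals and, through receptors such as those for IL-17, IL-4 and IL-22, a target of immune cells.

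Of the 107 genes, 0 rose and 4 fell with verticillin A: IL20RB, a chain of the receptors for IL-19, IL-20 and IL-24, IL17RD, a member of the IL-17 receptor family that restrains fibroblast growth factor signalling, IL1RAPL1, an IL-1 receptor relative of the nervous system, and the cytokine gene LIF. The promoters of the first 3 are shown because these genes fell, and that of CXCL8, the neutrophil attractant, because it lay just outside the threshold and has well studied AP-1 and NF-kB sites. IL17RD has 2 annotated starts. Each sequence is the RefSeq window of 300 bases (250 before the start, 50 after), written 5′ to 3′ on the gene's strand, and capitals mark matches to AP-1 (TGANTCA) or NF-kB type (GGNNNTTCC) letters on either strand.
IL20RB, GRCh38.p14 chr3:136957733-136958032, plus strand: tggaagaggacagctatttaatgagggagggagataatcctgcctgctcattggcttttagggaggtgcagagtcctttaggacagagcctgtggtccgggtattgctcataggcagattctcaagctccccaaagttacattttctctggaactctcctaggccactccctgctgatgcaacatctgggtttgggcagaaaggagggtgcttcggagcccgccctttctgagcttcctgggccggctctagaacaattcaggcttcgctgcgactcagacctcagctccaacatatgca
IL17RD upstream start, GRCh38.p14 chr3:57170268-57170567, minus strand: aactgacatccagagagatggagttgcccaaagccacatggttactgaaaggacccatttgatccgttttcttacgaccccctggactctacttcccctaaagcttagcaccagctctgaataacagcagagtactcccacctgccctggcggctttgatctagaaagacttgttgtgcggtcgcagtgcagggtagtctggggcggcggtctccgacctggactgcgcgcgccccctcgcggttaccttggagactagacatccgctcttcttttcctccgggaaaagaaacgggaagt
IL17RD downstream start, GRCh38.p14 chr3:57165304-57165603, minus strand: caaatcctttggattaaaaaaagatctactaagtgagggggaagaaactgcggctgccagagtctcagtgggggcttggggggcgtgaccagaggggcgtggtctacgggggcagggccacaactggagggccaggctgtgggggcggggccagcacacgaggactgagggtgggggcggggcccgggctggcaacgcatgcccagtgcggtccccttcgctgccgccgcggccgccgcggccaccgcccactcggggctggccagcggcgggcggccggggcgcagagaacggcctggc
IL1RAPL1, GRCh38.p14 chrX:28587196-28587495, plus strand: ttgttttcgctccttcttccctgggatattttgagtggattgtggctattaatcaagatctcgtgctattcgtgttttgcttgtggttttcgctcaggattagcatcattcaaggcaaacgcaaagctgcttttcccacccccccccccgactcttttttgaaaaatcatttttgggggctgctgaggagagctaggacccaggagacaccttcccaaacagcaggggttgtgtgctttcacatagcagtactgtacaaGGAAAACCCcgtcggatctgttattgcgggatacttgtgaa
CXCL8, GRCh38.p14 chr4:73740319-73740618, plus strand: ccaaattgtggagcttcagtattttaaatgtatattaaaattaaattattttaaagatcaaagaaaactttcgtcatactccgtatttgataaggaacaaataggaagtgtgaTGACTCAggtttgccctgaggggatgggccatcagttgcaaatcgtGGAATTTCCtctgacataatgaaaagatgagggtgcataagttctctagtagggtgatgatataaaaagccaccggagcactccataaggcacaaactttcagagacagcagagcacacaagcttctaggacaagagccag
A STAT type motif (TTCNNNGAA) was searched as well, and a given base may belong to more than 1 match. In the window of CXCL8 the AP-1 letters began at base -137 and the NF-kB type letters at base -91, counted from the start as +1. The windows of IL20RB and of both IL17RD starts held 0 matches to these 3 motifs, and that of IL1RAPL1 held 1, of the NF-kB type. Of all 35116 promoter windows in the RefSeq table, 7.71% held AP-1 letters, 20.1% NF-kB type letters and 7.66% STAT type letters. RefSeq windows were found for 81 of the 107 genes, 122 windows in all, and of these 17.2%, 27.9% and 15.6% held the AP-1, NF-kB type and STAT type letters. CXCL8, CXCL6, CXCL5, CXCL3 and CXCL2, neighbours on chromosome 4, each held NF-kB type letters, at bases -91, -89 and -90 for CXCL8, CXCL6 and CXCL5 and with 2 matches each in CXCL3 and CXCL2. These matches are descriptions of letters, not sites shown to be bound.

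Most of the genes had low values on all 4 arrays. The deposited values are log2 expression per probe set, and a gene's value also depends on its probes, so the order of genes by value is an order of array values and not of RNA amounts. The median over the 107 genes of the mean log2 value was 3.93, against 5.84 over all genes. As a mark of low values, the 8 measured leukocyte marker genes, which a carcinoma line should not express, had means between 3.51 and 4.97, and 84 of the 107 genes lay at or below the highest of them. The 23 genes above it were 11 interleukin receptors, 5 interleukins or genes with IL symbols, 2 chemokine ligands (CXCL16 and CXCL2), 0 chemokine receptors, CD274 and all 4 of LIF, LIFR, OSMR and CSF1. OSMR had the highest mean, 10.37, followed by IL18 at 9.08, IL17RA at 8.82 and CXCL16 at 8.64.

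**Figure D1:**
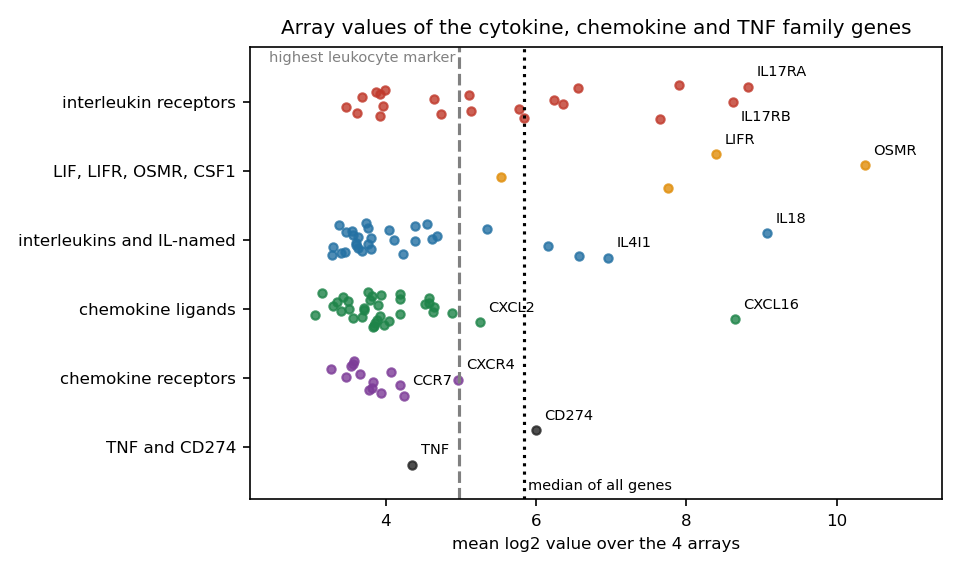
Mean log2 value over the 4 arrays (x axis) of each of the 107 genes (points), in rows by class, with the 2 highest of each class named. The dashed line is the highest leukocyte marker (4.97) and the dotted line the median of all genes (5.84); 84 of the 107 points lie at or left of the dashed line.

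Differences between the groups were tested with limma over all 14884 genes, and a gene is called where the p-value after Benjamini-Hochberg adjustment is under 0.05. Log2 changes are given as verticillin A minus control, between group means. The 4 falls made up 3.74% of the 107 genes, against 5.10% of all genes called lower, and 8.65% called in either direction. At an unadjusted p under 0.05 there were 7 higher and 13 lower, 18.7% of the 107 genes against 26.7% of all genes. Both verticillin A arrays lay above both control arrays in 17 of the 107 genes (25.7% of all genes) and below them in 25 (29.1% of all genes), 42 in all against 54.8% of all genes. These shares were not above those of the array as a whole. All 4 falls were among the 17 genes with a mean above the median of the table (23.5% of the 17). Of all genes above it, 8.63% were called lower and 14.6% in either direction, and whether these shares differ was not tested. IL1RAPL1 lay almost on the median, at 5.8422 against 5.8420. Of the 90 genes below the median, 0 were called. An unadjusted p under 0.05 in limma was found for 12 of the 90 (13.3%, against 26.7% of all genes). That 26.7% takes in the genes above the median, of which 39.3% had such a p. It therefore overstates the share for genes of low value, as does the 8.65% called, and these shares were not compared by a test. The median log2 change was 0.02 over the 107 genes and -0.01 over all genes, and 100 of the 107 changes were under 0.3 in size. The split of all calls, 528 higher and 759 lower, became 750 higher and 668 lower when each array was centred on its median.

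**Figure D2:**
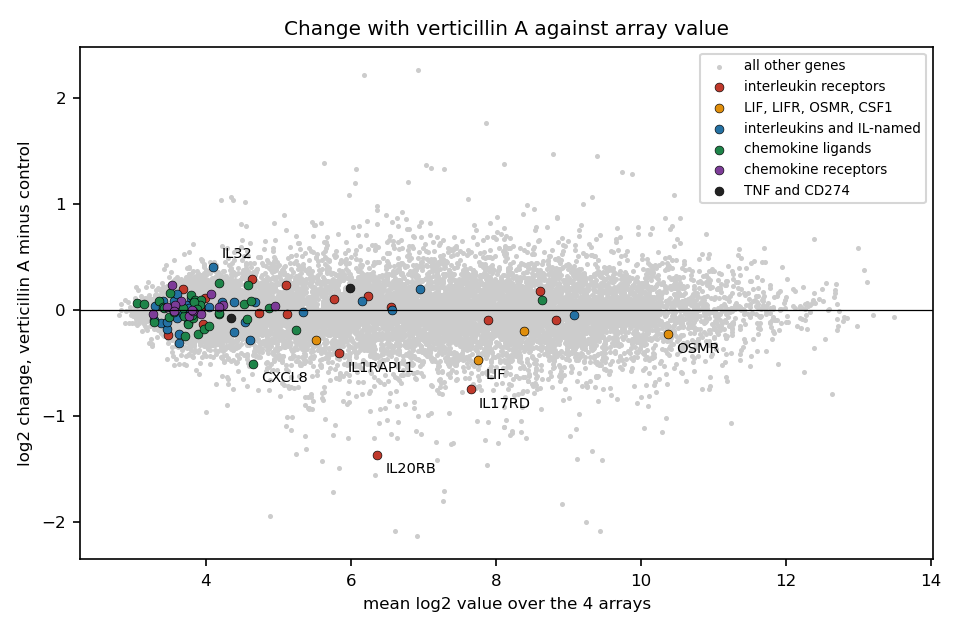
Log2 change, verticillin A minus control (y axis), against mean log2 value over the 4 arrays (x axis), for the 107 genes (coloured by class) and all other genes (grey). Most coloured points sit at low values near 0, and IL20RB, at -1.36, lies furthest from 0.

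Interleukin receptors held 3 of the 4 falls, among 21 measured (3 lower, 0 higher). That is 14.3% called, against 8.65% of all genes. The 3 falls were among the 8 receptors above the median value of the table, where 14.6% of all genes were called and 8.63% called lower. Whether these shares differ was not tested. IL20RB had log2 values of 5.57 and 5.79 with verticillin A, against 7.04 and 7.04 in control cells. The groups were separated by more than 1 log2 unit, and the 2 control arrays nearly coincided. Its mean of 5.68 ± 0.16 in treated cells was 2.57-fold lower than the 7.04 ± 0.003 of control cells (SD, n = 2 per group; log2 change -1.36 ± 0.10, SE; limma adjusted p = 0.00636), and 16 of the 14884 genes had a more negative change. As these are bulk samples, fewer cells with a transcript and less of it per cell cannot be told apart. IL20RB pairs with IL20RA or IL22RA1, which were not analysed here. Its ligand genes had values in the range of the leukocyte markers or below and were not called: IL19 averaged 3.76 with verticillin A and 3.71 in control cells, IL20 3.45 and 3.36, and IL24 3.52 and 3.74 (limma adjusted p = 0.744, 0.519 and 0.177).

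IL17RD had values of 7.16 and 7.41 with verticillin A, against 8.02 and 8.03 in control cells, and the groups did not overlap. Treated cells averaged 7.28 ± 0.18 and control cells 8.02 ± 0.009 (SD, n = 2 per group), a 1.67-fold lower value (log2 change -0.74 ± 0.10, SE; limma adjusted p = 0.0205). The other 5 measured genes of the IL-17 receptor family were not called. IL17RA, the chain shared by the IL-17 receptors, had 8.73 and 8.82 with verticillin A, against 8.83 and 8.91 in control cells, a log2 change of -0.10 with a 95% interval from -0.28 to 0.09. IL17RB, the chain that binds IL-25, had 8.70 and 8.71, against 8.49 and 8.56, a log2 change of 0.18 (95% interval 0.003 to 0.35, limma adjusted p = 0.181). Its arrays with verticillin A lay above both control arrays, while those of IL17RD lay below, and whether the 2 changes differ was not tested. IL17RC and IL17RE, the partner chains for IL-17A and IL-17C, had log2 changes of -0.04 (95% interval -0.23 to 0.16) and 0.03 (-0.20 to 0.26). The 6 measured IL-17 ligand genes had means of 3.46 to 4.68, all below the median value of the table, and 0 were called. At an unadjusted p under 0.05 in limma there was 1 (16.7%, against 26.7% of all genes and 39.3% of those above the median). That gene was IL25, at 3.46 and 3.50 with verticillin A against 3.90 and 3.68 in control cells (log2 change -0.31, adjusted p = 0.11).

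IL1RAPL1, which acts at synapses, had values of 5.69 and 5.59 with verticillin A, against 5.99 and 6.10 in control cells. It was 1.32-fold lower (log2 change -0.40 ± 0.08, SE; limma adjusted p = 0.0424), and the groups did not overlap. The other 6 genes of the IL-1 receptor family had changes between -0.23 and 0.11. Among them IL18R1, the binding chain of the IL-18 receptor, had 5.87 and 5.78 with verticillin A against 5.72 and 5.70 in control cells. Of the class I receptor genes, IL4R, the IL-4 receptor chain, had 7.83 and 7.88 with verticillin A against 7.93 and 7.95 in control cells, a log2 change of -0.09 with an interval from -0.26 to 0.07. IL31RA, which forms the IL-31 receptor with OSMR, had the largest positive change of the receptors, with 4.74 and 4.84 against 4.51 and 4.48 (log2 change 0.29 ± 0.07, SE; limma adjusted p = 0.0699). IL9R, the IL-9 receptor chain, had 5.18 and 5.26 against 4.95 and 5.01 (log2 change 0.24, adjusted p = 0.103). IL31RA had values in the range of the leukocyte markers, and IL9R just above it.

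**Figure D3:**
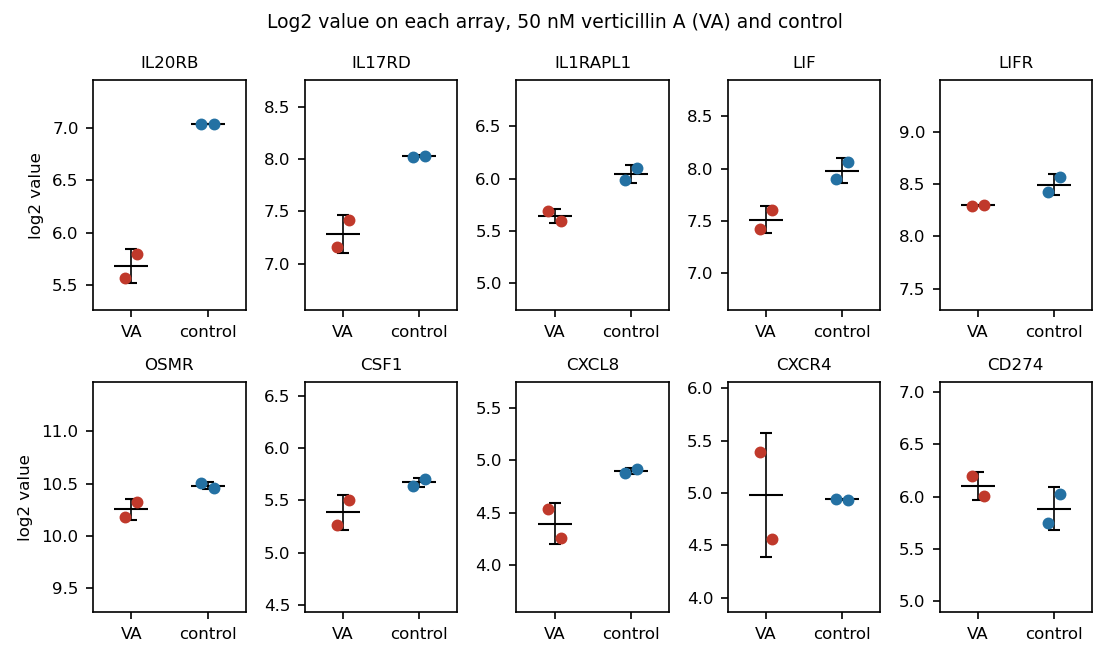
Log2 value on each array (points) with the mean and SD of each group (bars, n = 2), for 10 genes, 50 nM verticillin A (VA) left and control right; all panels span an equal log2 range. The groups are apart in IL20RB, IL17RD, IL1RAPL1, LIF, LIFR, OSMR, CSF1 and CXCL8 and overlap in CXCR4 and CD274.

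LIF, its receptor chain LIFR, the oncostatin M receptor chain OSMR and the macrophage growth factor gene CSF1 all had lower values on both arrays with verticillin A than on either control array (4 of 4, against 29.1% of all genes). Of the 4, 3 lay above the median value of the table, where 2751 of 7442 genes were lower in this way. Whether these shares differ was not tested. LIF, a cytokine of the IL-6 family that supports stem cells and acts through gp130, was the called one of the 4. It had 7.42 and 7.60 with verticillin A, against 7.90 and 8.07 in control cells, which made it 1.38-fold lower (log2 change -0.47 ± 0.10, SE; limma adjusted p = 0.0497, at the threshold). LIFR had 8.29 and 8.30 against 8.42 and 8.56 (log2 change -0.20 ± 0.08, SE; adjusted p = 0.183). OSMR had 10.19 and 10.33 against 10.51 and 10.46 (-0.23 ± 0.08, SE; adjusted p = 0.147). CSF1 had 5.27 and 5.50 against 5.64 and 5.70 (-0.28 ± 0.10, SE; adjusted p = 0.145). The gaps between the nearest arrays of the groups were narrow in the last 3 genes, and the upper ends of their 95% intervals lay just below 0 (-0.003, -0.03 and -0.04 for LIFR, OSMR and CSF1). IL6R, the IL-6 receptor chain, overlapped between groups, at 6.21 and 6.41 with verticillin A and 6.10 and 6.24 in control cells.

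When either control array was left out, 0 of the 14884 genes passed in limma (3715 without control replicate 1 and 3528 without control replicate 2 had an unadjusted p under 0.05), and the 4 genes had adjusted p-values of 0.0635 to 0.158. Without verticillin A replicate 1, IL20RB kept its call (log2 change -1.25, adjusted p = 0.0198), and IL17RD (-0.61, adjusted p = 0.0724), IL1RAPL1 (-0.45, adjusted p = 0.128) and LIF (-0.38, adjusted p = 0.188) lost theirs. Without verticillin A replicate 2, IL20RB (-1.47, adjusted p = 0.0167) and IL17RD (-0.87, adjusted p = 0.0411) kept it, and IL1RAPL1 (-0.35, adjusted p = 0.197) and LIF (-0.56, adjusted p = 0.10) did not. LIF also missed the threshold after centring the arrays on their medians (log2 change -0.43, adjusted p = 0.051). All 4 changes were negative whichever array was left out.

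**Figure D4:**
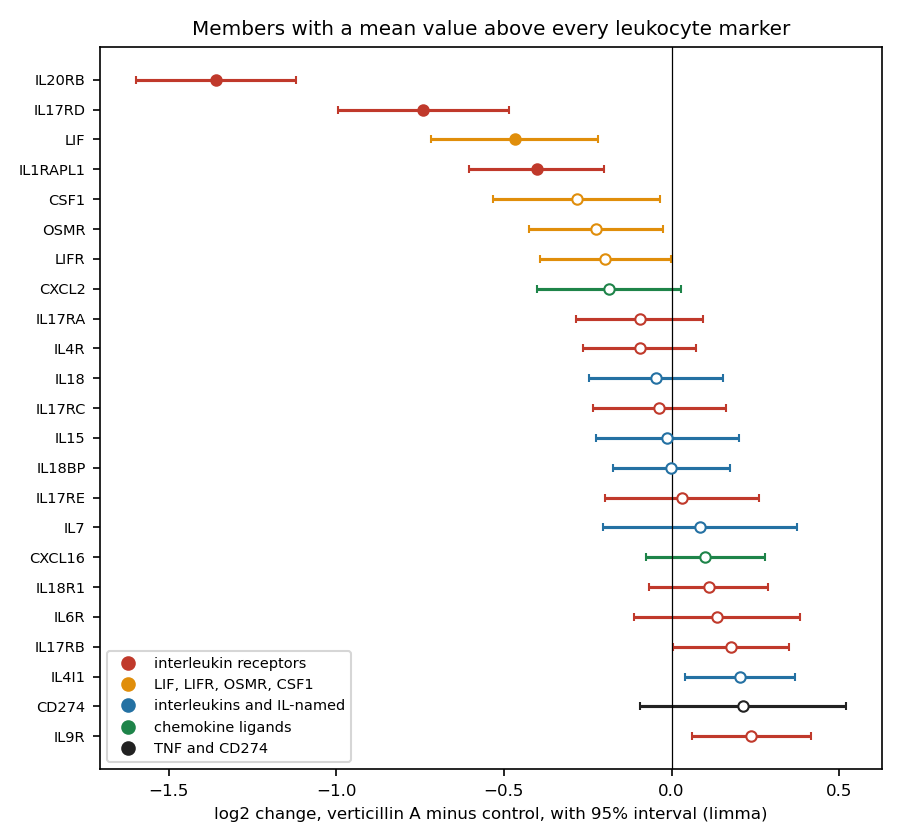
Log2 change, verticillin A minus control (x axis), with its 95% interval from limma, for the 23 genes whose mean value exceeded that of every leukocyte marker (rows, coloured by class). Filled points are called; IL20RB, IL17RD, LIF and IL1RAPL1 are the 4 filled ones, and most other intervals include 0.

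Of 35 chemokine ligand genes, 0 were called, and their median log2 change was 0.02. At an unadjusted p under 0.05 in limma 0 were higher and 3 lower (8.57%, against 26.7% of all genes). Of the 35, 1 lay above the median value of the table, where 39.3% of all genes had such a p. The 26.7% is thus not a share for genes of such low values. CXCL8 came nearest, at 4.54 and 4.26 with verticillin A against 4.88 and 4.92 in control cells. Both arrays with verticillin A were lower than both control arrays, by 1.42-fold on average (log2 change -0.50 ± 0.11, SE, limma adjusted p = 0.0506). All 4 values lay in the range of the leukocyte markers, although both control values exceeded every marker mean but that of CD8A. CXCL8 passed the threshold in 4 other settings (limma adjusted p = 0.0331 to 0.05), and its adjusted p reached 0.166 in the rest of those that tested it. The other neutrophil attractants beside it on chromosome 4 were not called. CXCL2 had 5.24 and 5.08 against 5.30 and 5.39 (log2 change -0.19, 95% interval -0.40 to 0.03), and CXCL3, CXCL5 and CXCL6 had log2 changes of 0.06, 0.10 and -0.18 and overlapped between groups. CXCL3 averaged 3.18 with verticillin A and 3.13 in control cells, among the lowest values of the table, and near-identical sequences in this gene family may share probes.

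CXCL16, a membrane-bound chemokine that is also a scavenger receptor, was the chemokine with the highest value. It had 8.68 and 8.71 with verticillin A against 8.64 and 8.55 in control cells, a log2 change of 0.10 with an interval from -0.08 to 0.28. The genes for the interferon-induced chemokines CXCL9, CXCL10 and CXCL11, which attract T cells, had means of 3.51 to 3.88, and 0 of these 3 were called. The 22 CC chemokine genes had means of 3.06 to 4.88. They included 11 genes in 2 groups of neighbours on chromosome 17, with median changes of 0.02 and 0.07 and 0 called. CCL23, which had the largest absolute change after CXCL8, overlapped between groups, at 4.35 and 4.28 with verticillin A and 4.29 and 3.82 in control cells. Its change rested on the control arrays, at 0.49 without control replicate 1 and 0.02 without control replicate 2. CCL3L1, which has near-identical copies, had 4.81 and 4.97 against 4.92 and 4.81.

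The 14 chemokine receptor genes had means of 3.27 to 4.96, all below the median value of the table, and 0 were called. At an unadjusted p under 0.05 in limma there was 1 (7.14%, against 26.7% of all genes and 39.3% of those above the median). That gene was CCR4, at 3.68 and 3.63 with verticillin A against 3.39 and 3.46 in control cells (log2 change 0.24, adjusted p = 0.103). CXCR4, the receptor for CXCL12 that has been studied in metastasis, differed between its 2 verticillin A arrays more than any other of the 107 genes did within a group. Its values were 5.40 and 4.56 with verticillin A, against 4.94 and 4.93 in control cells, so the change of 0.04 had an interval from -0.62 to 0.70. Without verticillin A replicate 1 the change was -0.38, and without verticillin A replicate 2 it was 0.46, with neither called (limma adjusted p = 0.149 and 0.11). CCR7 and CCR8, receptors of lymphocyte homing and of T cell subsets, overlapped between groups, with log2 changes of 0.05 and 0.03.

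Of 31 interleukin genes and genes with IL symbols, 0 were called. At an unadjusted p under 0.05 in limma 2 were higher and 3 lower (16.1%, against 26.7% of all genes). Of the 31, 4 lay above the median value of the table, where 39.3% of all genes had such a p. IL18, an IL-1 family cytokine made by gut epithelium, had 9.109 and 8.999 with verticillin A, against 9.153 and 9.050 in control cells. The groups overlapped, and the interval of the log2 change (-0.25 to 0.15) corresponds to between 0.842 and 1.11 times the control value. IL18BP, whose product binds and neutralises IL-18, had 6.55 and 6.58 against 6.53 and 6.60. IL4I1, which despite its symbol is an amino acid oxidase, had 7.05 and 7.06 against 6.85 and 6.86. The groups did not overlap (log2 change 0.20, limma adjusted p = 0.122, 0.0389 without the dimmest 50% of genes). IL32, a cytokine of epithelial and immune cells, had the largest positive change of the 107, 0.41 ± 0.16 (SE), at 4.52 and 4.11 against 3.79 and 4.02, and was not called (limma adjusted p = 0.174). Its change was 0.21 without verticillin A replicate 1, smaller than that of IL31RA in the same fit (0.35), 0.61 without verticillin A replicate 2, and 0.29 and 0.52 without control replicates 1 and 2. IL15 and IL7, growth factors of lymphocytes, had means of 5.35 and 6.15 and overlapped between groups. The remaining interleukins, among them IL2, IL4, IL10, IL13, IL22 and IL33, lay at or below the highest leukocyte marker.

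TNF, the founding cytokine of its family, had 4.25 and 4.38 with verticillin A, against 4.52 and 4.26 in control cells. The groups overlapped (log2 change -0.07, 95% interval -0.35 to 0.21, limma adjusted p = 0.753). TNF has 8 probe sets on the array, of which 7 carried identical values, and their changes ran from -0.07 to -0.05. CD274, which encodes the checkpoint ligand PD-L1, had 6.19 and 6.01 with verticillin A, against 5.74 and 6.03 in control cells. One control array lay between the 2 verticillin A arrays, and the interval of its change ran from 0.937 to 1.44 times the control value (limma adjusted p = 0.347). Leaving out 1 array gave log2 changes of 0.12 and 0.31 (without verticillin A replicates 1 and 2) and 0.07 and 0.36 (without control replicates 1 and 2). Of 14 measured genes for other checkpoint ligands, 1 was lower and 0 higher, against 8.65% of all genes called. It was PVR, the ligand of DNAM-1 and TIGIT, at 7.81 and 7.88 against 8.35 and 8.51 (log2 change -0.59 ± 0.08, SE; adjusted p = 0.022).

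Downstream of these receptors, 3 of 18 measured JAK-STAT pathway genes were called (16.7%, against 8.65% of all genes). Of the 18, 13 lay above the median value of the table, where 14.6% of all genes were called. STAT3, the factor through which LIF and oncostatin M act, had 9.93 and 9.94 with verticillin A, against 10.34 and 10.42 in control cells, and was lower by 1.36-fold (log2 change -0.45 ± 0.07, SE; limma adjusted p = 0.0269). JAK1, the kinase bound by gp130, LIFR, OSMR and the IL-20 receptors, had 10.25 and 10.33 against 10.65 and 10.74, 1.33-fold lower (-0.41 ± 0.07, SE; adjusted p = 0.035). STAT4, a factor best known from T cells, was higher, at 7.35 and 7.33 against 7.02 and 7.01 (0.32 ± 0.07, SE; adjusted p = 0.0448). SOCS3, the feedback inhibitor induced by STAT3, had 5.85 and 5.94 against 5.98 and 5.97 (log2 change -0.08, 95% interval -0.26 to 0.09). The median over the 18 genes was -0.07, and calls of the 3 genes were lost whichever array was left out and with the replicate number as a block (adjusted p = 0.056 for STAT3, 0.0602 for JAK1 and 0.0836 for STAT4).

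Of 27 NF-kB pathway genes, 0 were called. At an unadjusted p under 0.05 in limma 5 were higher and 5 lower, 10 in all (37.0%, against 26.7% of all genes). Of the 27, 24 lay above the median value of the table, where 39.3% of all genes had such a p. Other settings called up to 7 (2 higher and 5 lower without the dimmest 50% of genes, where 2399 of 7442 genes passed). The pair with the largest change was IRAK2, an IL-1 receptor kinase, and TRAF5, a TNF receptor adaptor, with changes of -0.40 for IRAK2 (limma adjusted p = 0.0547) and -0.37 for TRAF5 (adjusted p = 0.0558). Of 8 TNF family genes with other symbols, 1 was called (12.5%, against 8.65% of all genes). This was the ectodysplasin receptor gene EDAR, lower at 3.57 and 3.44 against 3.99 and 3.89. These values lay in the range of the leukocyte markers or, at 3.44, just below it. Of 39 cytokine and receptor genes with other symbols, 3 were lower and 0 higher (7.69% called, against 8.65% of all genes). IFNGR1, the binding chain of the interferon gamma receptor, had 7.77 and 7.70 against 8.33 and 8.21 (-0.53 ± 0.08, SE; adjusted p = 0.022). GDF15, a stress-induced cytokine, had 11.11 and 11.16 against 11.57 and 11.64 (-0.47 ± 0.07, SE; adjusted p = 0.024), and KITLG, the ligand of KIT, 12.23 and 12.18 against 12.57 and 12.55 (-0.35 ± 0.07, SE; adjusted p = 0.0393). Over all 106 listed genes that are not among the 107, 1 was higher and 7 lower, 7.55% called against 8.65% of all genes, and leaving out any 1 array left 0 of these 8 calls in limma. EDAR and KITLG also missed the threshold after median centring (adjusted p = 0.0532 and 0.0524).

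**Figure D5:**
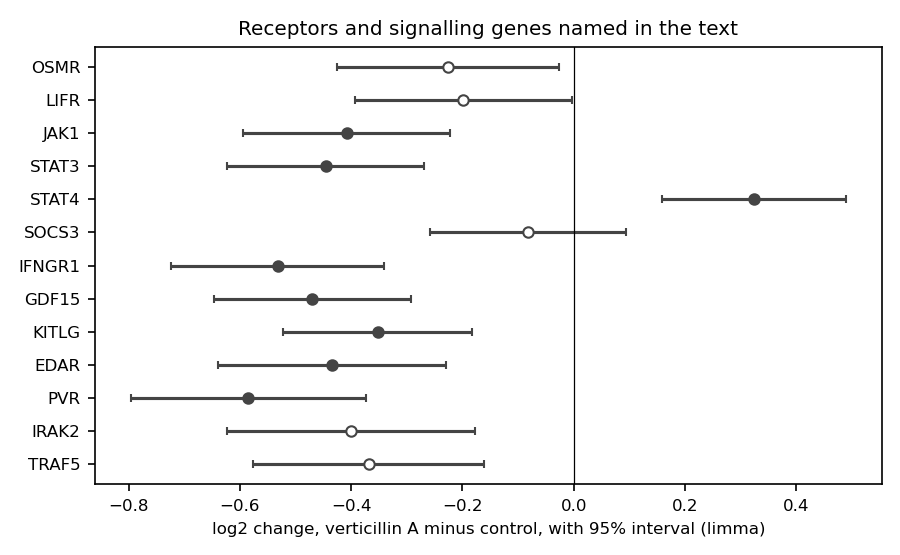
Log2 change, verticillin A minus control (x axis), with its 95% interval from limma, for 13 receptor, ligand and signalling genes (rows). Filled points are called: JAK1, STAT3, IFNGR1, GDF15, KITLG, EDAR and PVR lie below 0 and STAT4 above, while SOCS3 includes 0.

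Across all genes the 2 verticillin A arrays correlated at r = 0.998 and the 2 control arrays at 0.997, and arrays of different groups at 0.993, across genes that are not independent replicates. The median absolute difference over the 107 genes was 0.0924 between the verticillin A arrays and 0.088 between the control arrays. Of 10 epithelial markers 1 was called (10%, against 8.65% of all genes): VIL1 was lower (log2 change -0.62, limma adjusted p = 0.0167), a call lost whichever array was left out (adjusted p = 0.0679 to 0.087). The groups did not overlap in 6 of the 10 (60%, against 54.8% of all genes), of which 4 were higher and 2 lower with verticillin A. The 4 were not called, among them GPA33 (4.62 with verticillin A and 4.44 in control cells) and CDX2 (5.38 and 5.19). EPCAM averaged 10.94 with verticillin A and 11.11 in control cells, and KRT18 10.44 and 10.37. In contrast, GPA33, CEACAM5 (3.67 and 3.55), TSPAN8 (3.73 and 3.64), CDX1 (4.12 and 4.06) and KRT20 (4.67 and 4.61) had values in the range of the leukocyte markers. The summed log2 value of the 8 leukocyte markers was 33.2 and 33.2 with verticillin A, against 33.2 and 33.6 in control cells, and 0 of the 8 were called (0 at an unadjusted p under 0.05 in limma).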

How the data were processed

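Whole-transcript Affymetrix arrays of 4 samples were used, 2 per group. The authors deposited 1 log2 value per probe set and array, and GCRMA is named for them per the submitters' processing notes; no version, filter or build is given in the sources used here. The log2 scale was read from the values. No detection calls were used, so low values cannot be separated from background and changes of dim genes may be understated, and the number of arrays limits the precision.

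Platform annotation named 1 gene for 16098 of 53617 probe sets, 0 had several and 37519 were unnamed here. Symbols and gene classes came from RefSeq GRCh38.p14 by gene identifier (16098 matched). The probe set with the highest mean stood for a gene. limma 3.58.1 in R 4.3.3 (lmFit, eBayes, 3.43 prior and 2 residual degrees of freedom) was fitted to all 14884 genes, with Benjamini-Hochberg adjustment over them. It was also run on simulated data. The changes simulated there were larger than those of every called gene named here but IL20RB, so smaller changes were not covered. The members and gene lists were chosen with earlier results of these data known. Named genes are those called, the 3 highest and the 2 most changed but uncalled of each class, TNF, LIF, LIFR, OSMR, CSF1 and CD274, and up to 4 called genes per list (2 where none passed). Further genes of the same families, epithelial and leukocyte markers and SOCS3 were named after their values were seen. Alternatives were 11 other settings of normalization, filtering, probe set choice, adjustment, prior, replicate block and arrays left out.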

Additional observations from a re-analysis of the deposited data

How the results depend on the processing

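The number of the 107 genes called higher was 0 with all arrays and 1 without the dimmest 50% of genes (IL4I1) or with protein-coding genes alone (IL31RA). The number lower was 4, and 2 with the replicate block (IL20RB and IL17RD); leaving out 1 array gave 0 to 2, and 0 higher. In these fits 1 residual degree of freedom remains. The other settings gave 3 to 6 lower. The replicate numbers could not be shown to pair the arrays (deviations of same-numbered arrays correlated at 0.0124, with only 2 numbers). Listed pathway genes called higher were 1 with all arrays, 2 after median centring, with protein-coding genes alone and with a mean-variance trend, 3 without the dimmest 50% of genes and 0 with the replicate block; those called lower were 7, and 15 without the dimmest 50% of genes, 17 with the trend and 3 with the block (IFNGR1, GDF15 and PVR; EDAR and KITLG missed it at adjusted p = 0.055 and 0.074, as did JAK1, STAT3 and STAT4). Leaving out 1 array gave 0 for both. What made these counts differ was not tested. Some settings fitted fewer genes or arrays, whereas median centring, the trend and the block kept all 14884 genes and 4 arrays. The median log2 change of the 107 genes (0.02) was 0.02 to 0.06 in the settings with all arrays that kept all 107, and negative, -0.02 to -0.001, whenever 1 array was left out. Over the 17 genes kept without the dimmest 50% it was -0.05. Among named genes, uncalled changes turned sign in IL18BP after median centring (0.038) and, on leaving out 1 array, in CCL3L1 (range -0.059 to 0.11), CCR7 (-0.026 to 0.12), CCR8 (-0.10 to 0.17), CXCR4 (-0.38 to 0.46), IL18 (-0.10 to 0.0077), IL18BP (-0.037 to 0.036) and TNF (-0.20 to 0.061). No detection calls or scanner files were used, so background limits the 84 genes with low values.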
